A study of Mus musculus with 2 samples.

Results

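Enzymes that make serine and glycine and pass their carbon to folate were examined in CH cells, small circulating cells sorted from mouse blood and labelled PlCH in the deposited records. The 10 enzymes were listed by gene name, in the order of the pathway, and each probe set whose annotation names only 1 of them was taken. A probe set is a group of short oligonucleotides that reads a transcript. Of the 10 genes, 9 had such a probe set and gave 25 in all, out of 18193 genes and 45037 probe sets. Tdh, the threonine dehydrogenase, was not analysed here.

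The arrays form 1 group. RNA came from 2 pools, each of blood from 15 untreated C57bl/6 mice of both sexes and 7 months of age, and each pool was hybridised to 1 Affymetrix whole-genome mouse array. The paper's methods give younger mice and smaller pools than these records. CH cells were sorted as small viable cells that bind a DNA dye and lack CD45 and lineage antigens. Values are log2 signals as deposited, and a gene counted as above the limit if any 1 probe set for it was over 5 (log2) on both arrays. The paper uses the same value to remove genes below it throughout its dataset. With 1 condition there is no comparison between groups, and since different probes bind with different strength, levels of different genes do not rank their transcripts. In pooled RNA, fewer cells of a type and less RNA per cell cannot be told apart.

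Serine is built from a glycolytic intermediate in a short chain of reactions that starts with Phgdh. Serine hydroxymethyltransferases then move a carbon from serine to tetrahydrofolate and leave glycine, and the loaded folates serve thymidylate, purine and methionine synthesis. Dividing cells depend on these steps. In mouse embryonic stem cells threonine is a further source of glycine and folate carbon through Tdh, whereas the human gene does not make an active enzyme.

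In CH cells, 8 of the 9 measured enzymes were above 5 on both arrays, in a background where 71.2% of all genes were. They were Phgdh, Psat1, Psph, Shmt1, Shmt2, Mthfd1, Mthfd2 and Gldc. Tyms was below 5 with each probe set that names it alone. Above 8 there were 7 of the 9, in a background of 37.0%. The median of the 9 genes, each by its highest probe set, was 11.27, and that of all genes was 6.84. By probe set, 21 of the 25 were above 5, against 57.2% of all probe sets. That background is not a like set, since it includes 932 probe sets that name several genes and 9160 with no entry. The listed genes were chosen with earlier results of these arrays known, so the counts describe them and carry no test of the list. At this limit 13 of 76 chemosensory receptor genes, which serve smell and taste, were also above 5. The highest of these receptors was at 6.92.

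**Figure D1:**
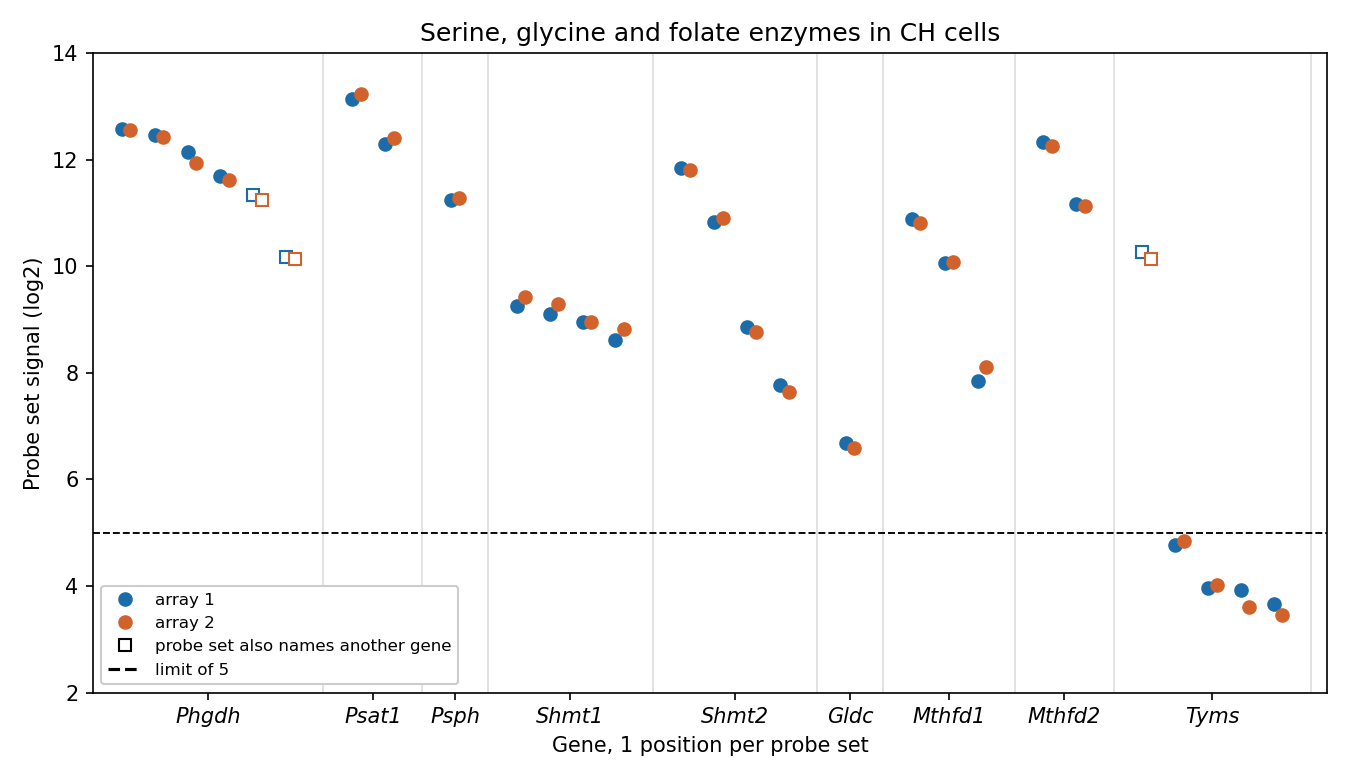
Log2 signal (vertical axis) of each probe set of the 9 measured enzymes (horizontal axis), with blue for array 1 and orange for array 2, and open squares for probe sets that also name another gene. Psat1 reaches 13.23, while the filled circles of Tyms lie below the dashed limit of 5 and its open squares lie at 10.27 and 10.14.

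The enzymes of serine synthesis had high signals on both arrays. Phgdh, which oxidises 3-phosphoglycerate in the first step, was at 12.58 on array 1 and 12.56 on array 2 with its highest probe set, 1437621_x_at. Its other probe sets were at 12.47 and 12.42 (1454714_x_at), at 12.14 and 11.94 (1426658_x_at), and at 11.69 and 11.62 (1456584_x_at). The 4 thus spanned 0.91 on the log2 scale. Each of them carries the suffix _x_at, given to probe sets that can read several transcripts, so no Phgdh value comes from a probe set free of that mark. Psat1, the aminotransferase of the second step, was at 13.14 and 13.23 with 1451064_a_at and at 12.30 and 12.40 with 1454607_s_at. Psph, the phosphatase that releases serine, has 1 probe set, 1415673_at, at 11.25 and 11.28. Means were 12.57 ± 0.01 for Phgdh, 13.18 ± 0.06 for Psat1 and 11.27 ± 0.02 for Psph (SD, n = 2 arrays). Each gene of this branch was above 8 on both arrays, beside 37.0% of all genes.

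The stretches before the start sites of Phgdh and Psat1 are shown because both genes stand in the same branch and both hold the CCAAT box, the core bound by the factor NF-Y, which is in capitals on either strand. They are the 250 bases before the annotated start in RefSeq on GRCm38.p6, written in the direction of transcription.
Phgdh, chr3:98339970-98340219, minus strand: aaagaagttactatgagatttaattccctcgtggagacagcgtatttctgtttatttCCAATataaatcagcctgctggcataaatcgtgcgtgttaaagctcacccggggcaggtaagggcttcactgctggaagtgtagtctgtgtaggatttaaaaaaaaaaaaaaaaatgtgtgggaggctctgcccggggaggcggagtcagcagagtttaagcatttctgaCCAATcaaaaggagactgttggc
Psat1, chr19:15925060-15925309, minus strand: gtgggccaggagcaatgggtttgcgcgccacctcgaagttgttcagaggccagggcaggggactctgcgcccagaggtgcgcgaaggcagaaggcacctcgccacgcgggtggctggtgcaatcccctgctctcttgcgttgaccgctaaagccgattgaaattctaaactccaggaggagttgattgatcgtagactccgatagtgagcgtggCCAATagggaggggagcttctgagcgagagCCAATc
Of the 10 genes, 9 had promoter windows, and the box CCAAT was found in those of 7, namely Phgdh, Psat1, Psph, Shmt1, Mthfd1, Mthfd2 and Gldc. It was found in 37.5% of 27025 genes with windows of the same length. Psat1 has a further annotated start, whose window held no CCAAT. The GC box GGGCGG was found in 6 of 9 members, against 35.4% of genes, and matches in Shmt1 share 1 base. TATAAA was found only in Phgdh among the members, where it shares 1 base with a CCAAT box, and in 14.3% of genes. The pattern TTTNNCGC (N for any base), a loose form of the E2F site, was found only in Psph among the members, and in 4.94% of genes. The element TGATGNAAN, which Atf4 binds with C/EBP partners, was found in 0 of 9 members and in 3.89% of genes. A match describes letters in these windows and does not show that a factor binds there.

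Both serine hydroxymethyltransferases were above 5 with each of their probe sets. Shmt2, the mitochondrial enzyme, was at 11.84 on array 1 and 11.81 on array 2 with 1455084_x_at and at 10.83 and 10.90 with 1426423_at. Its remaining probe sets were at 8.85 and 8.76 (1434204_x_at) and at 7.76 and 7.64 (1455985_x_at). The probe sets of this gene therefore spanned 4.12 on the log2 scale, the widest range among the members. Shmt1, the cytosolic enzyme, was at 9.26 and 9.41 with 1425179_at, at 9.11 and 9.29 with 1422198_a_at, at 8.94 on both arrays with 1425177_at, and at 8.61 and 8.82 with 1425178_s_at. Its 4 probe sets lay within 0.62 of each other. Means of the highest probe set were 11.82 ± 0.02 for Shmt2 and 9.34 ± 0.11 for Shmt1 (SD, n = 2 arrays).

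Gldc, the decarboxylase that opens glycine in the mitochondrial glycine cleavage system, was the lowest of the members above the limit. Its 1 probe set, 1416049_at, was at 6.69 on array 1 and 6.59 on array 2, with a mean of 6.64 ± 0.07 (SD, n = 2 arrays). The mean exceeded 5 with an adjusted p of 8.61e-06 by limma, set against the limit over all 45037 probe sets. It lay above 6.04, the 95th percentile over 84 probe sets of chemosensory receptors, and below the highest receptor at 6.92. At a limit of 8 Gldc was not called. Partners of the system were also measured, Gcsh, its carrier of the aminomethyl group, at 12.17 ± 0.04, and Dld, a dehydrogenase shared with other complexes, at 10.62 ± 0.03 and, with its other probe set, at 4.03. Amt was not analysed here.

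The enzymes that change the oxidation state of folate carbon were well above the limit. Mthfd2, the mitochondrial dehydrogenase and cyclohydrolase known from embryonic and proliferating cells, was at 12.34 on array 1 and 12.26 on array 2 with 1419254_at and at 11.17 and 11.12 with 1419253_at. Mthfd1, the cytosolic enzyme with 3 activities, was at 10.88 and 10.81 with 1415916_a_at and at 10.06 and 10.07 with 1415917_at. Its remaining probe set, 1436704_x_at, was at 7.85 and 8.11, so only this one lay on both sides of 8. Means of the highest probe set were 12.30 ± 0.05 for Mthfd2 and 10.85 ± 0.04 for Mthfd1 (SD, n = 2 arrays).

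Among the members the Mthfd2 window held the most CCAAT boxes, 3, and is shown for that reason, with the boxes in capitals on either strand (RefSeq, GRCm38.p6).
Mthfd2, chr6:83317605-83317854, minus strand: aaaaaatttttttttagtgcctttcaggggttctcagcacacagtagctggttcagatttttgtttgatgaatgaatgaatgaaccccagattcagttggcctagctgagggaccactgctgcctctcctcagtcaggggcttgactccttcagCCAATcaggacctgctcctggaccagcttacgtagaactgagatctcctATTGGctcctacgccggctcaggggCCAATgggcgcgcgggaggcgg

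Tyms, the thymidylate synthase that spends a folate carbon on DNA synthesis, gave opposite readings by annotation. The 4 probe sets that name Tyms alone were at 4.77 on array 1 and 4.84 on array 2 (1442192_at), 3.96 and 4.01 (1438690_at), 3.92 and 3.61 (1427810_at), and 3.66 and 3.45 (1427811_at). All 8 values lay below 5, and by limma the means lay below it with adjusted p of 0.0465, 5.24e-05, 9.62e-05 and 2.54e-05. The fit shares spread over all signal levels, while the arrays differ more at low signal. For 1442192_at its standard error was 0.0712, beside an SD of 0.244 for the array difference over probe sets of like mean. The adjusted p of 0.0465 by limma may therefore be too small. Another probe set, 1424991_s_at, names Tyms together with the pseudogene Tyms-ps, and it was at 10.27 and 10.14. It is not counted here because its signal cannot be assigned to 1 gene. Counting probe sets that also name another gene, a choice made after the values were seen, put 9 of 9 members above 5. The share of all genes was not computed for that choice. Genes of dividing cells were high on the same arrays, with 7 of 7 above 8 by their highest probe set, beside 37.0% of all genes. Among them were Pcna, the clamp of DNA polymerase, at 13.12 ± 0.03 and Rrm2, which makes deoxynucleotides, at 11.29 ± 0.01 (SD, n = 2 arrays). Their relation to the Tyms readings was not tested. The place of the Tyms probes within the transcript was not analysed here.

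**Figure D2:**
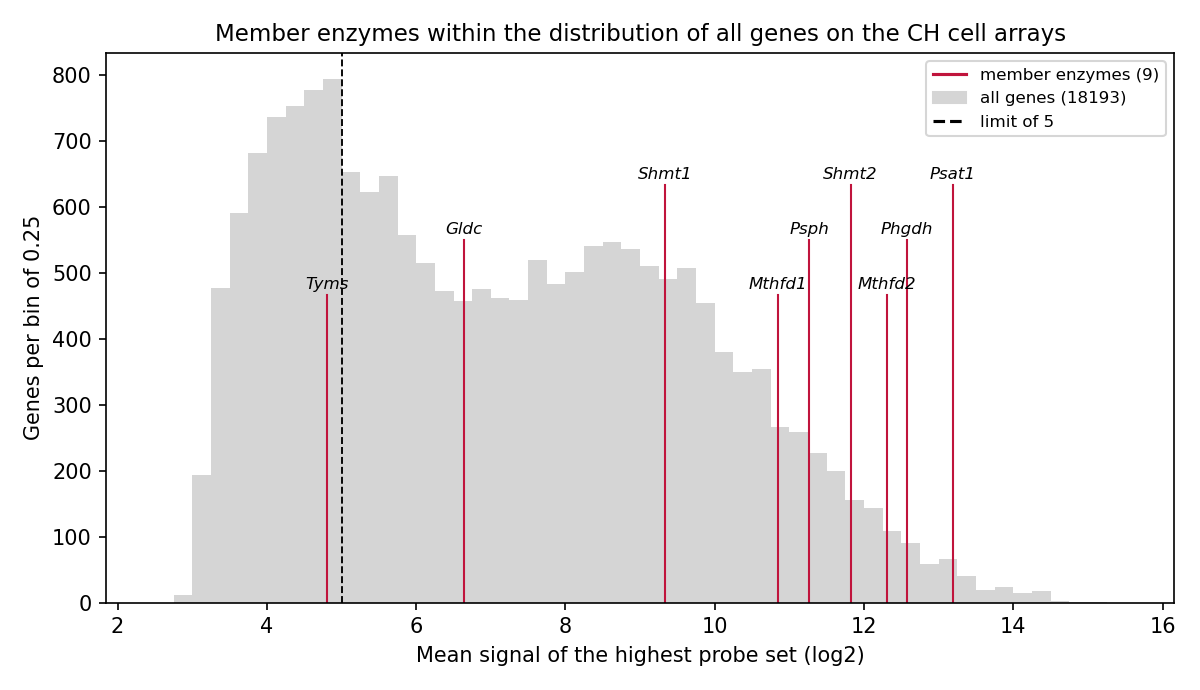
Number of genes per bin of 0.25 (vertical axis) by mean log2 signal of the highest probe set (horizontal axis) for 18193 genes in grey, with red lines at the 9 measured enzymes and the limit of 5 dashed. Tyms lies at 4.81 and Gldc at 6.64, and the other 7 lie from 9.34 to 13.18. Probe affinity adds to differences between genes.

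The absolute difference between the arrays had a median of 0.07 over the 25 member probe sets, and 0.12 over all 45037. These 2 medians are not matched for signal. Array 1 was higher for 13 of the 25 and array 2 for 12. The largest difference of array 1 minus array 2 was 0.31, for 1427810_at of Tyms, at a signal below the limit. Among probe sets above 5 it was largest for 1436704_x_at of Mthfd1, at -0.25. The spread of this difference depends on signal, so each was set beside the SD over all probe sets within 0.5 of its mean. In 9 of 25 cases the difference was larger than that SD, and over all probe sets this held for 29.3%. Phgdh 1426658_x_at, with 0.20 against an SD of 0.09, was furthest beyond it. All 4 probe sets of Shmt1 were higher on array 2, by 0.21 at most, though for 1425177_at the difference was only -0.000623. All 4 of Phgdh were higher on array 1. Probe sets of 1 gene read the same RNA and are not independent, and 1 array per pool allows no test of a difference between pools.

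**Figure D3:**
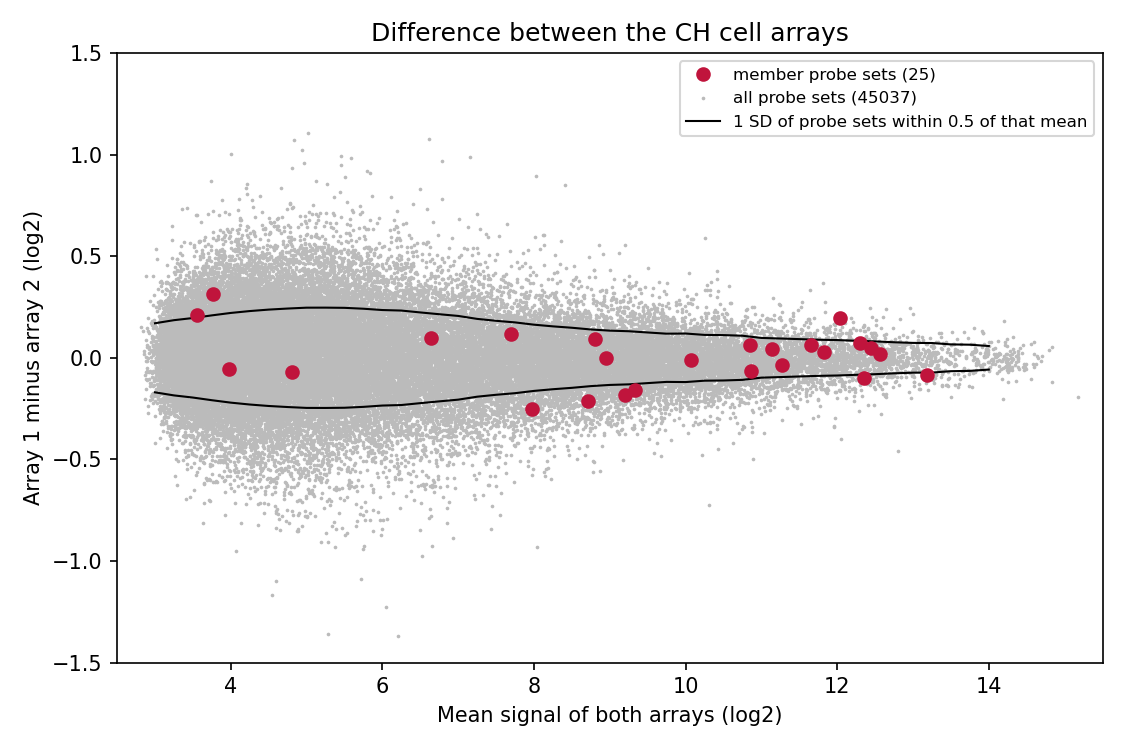
Log2 signal of array 1 minus array 2 (vertical axis) against the mean of both arrays (horizontal axis), with 25 member probe sets in red, all 45037 in grey, and black lines at 1 SD of the probe sets within 0.5 of that mean. The members lie between -0.25 and 0.31.

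Of 45 further genes of the pathway, 37 had a probe set that names them alone, and 33 of these (89.2%) were above 5 on both arrays, beside 71.2% of all genes. Their median by highest probe set was 8.76, and 21 were above 8, beside 37.0% of all genes. At a limit of 6 the count was 26 of 37, beside 10515 of 18193 genes. When each mean was tested against 5 by limma (adjusted p below 0.05), 8 of the 9 members and 32 of these 37 genes passed, beside 69.1% of all genes. The gene lost was Folr2, a folate receptor, at 5.05 ± 0.02 (SD, n = 2 arrays; adjusted p = 0.521 by limma). Below 5 were Mthfs at 4.41, Mat1a at 3.70, Bhmt at 4.50 and Bhmt2 at 3.70. Mat1a and Bhmt are known for their high levels in liver. Of 4 liver markers 3 were above 5 by their highest probe set, a share near the 71.2% of all genes. Ttr was at 6.15, Apoa1 at 6.08 and Afp at 5.44, while Alb was at 4.11. Only 1 of 4 probe sets of Ttr, 2 of 4 of Apoa1 and 2 of 5 of Afp were above 5. Another probe set of Mthfs also names a related gene and was at 7.76.

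Of 7 other genes that carry or convert folate carbon, 6 were above 5, beside 71.2% of all genes, and 3, all of the mitochondrial route, were above 8 on both arrays, a share near the 37.0% of all genes. Aldh1l2, which oxidises formyl-folate in mitochondria, was at 10.90 on array 1 and 10.99 on array 2. Mthfd1l, the mitochondrial formate-producing enzyme, was at 10.01 and 9.96, and Mthfd2l, a relative of Mthfd2, at 8.72 and 8.80. Aldh1l1, the cytosolic counterpart of Aldh1l2, was at 5.49 and 5.70, with its other probe set below 5. Ftcd, an enzyme of histidine breakdown, was at 5.43 and 5.28. Both exceeded 5 by less than 1 log2 unit. Mtfmt, which formylates the mitochondrial initiator tRNA, was at 7.15 ± 0.03 (SD, n = 2 arrays). All 7 genes of folate uptake and retention were above 5, beside the same 71.2%. Of these, Folr1 at 5.74 and Folr2 at 5.05 lay below 6.04, the 95th percentile of the chemosensory receptor probe sets. Among the carriers, Slc19a1, the reduced folate carrier, was at 9.20 on both arrays, and Slc25a32, the mitochondrial carrier, at 7.74 and 8.11. Those are the highest probe sets. Others had means of 8.66 and 4.97 for Slc19a1, and of 6.70 and 4.08 for Slc25a32.

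The users of folate carbon were measured as well, each given here by its highest probe set. The lowest probe sets had means of 3.65 for Ppat, 6.43 for Gart, 6.19 for Dut and 5.18 for Mtr. All 6 enzymes of purine ring synthesis were above 8, beside 37.0% of all genes, from Ppat, the first committed step, at 9.51 ± 0.10 to Paics at 12.79 ± 0.02 (SD, n = 2 arrays). Gart and Atic, which take formyl groups from folate, were at 10.44 ± 0.02 and 11.16 ± 0.13. On the thymidylate side, Dut, which supplies dUMP to Tyms, was at 11.21 ± 0.02, Tk1, the salvage kinase, at 10.30 ± 0.02, and Dctd at 9.23 ± 0.05. Of 10 genes of the methionine cycle and transsulfuration, 7 were above 5, a share near the 71.2% of all genes. Ahcy, which clears adenosylhomocysteine, was at 12.15 ± 0.05, Mtr, the folate-dependent methionine synthase, at 7.65 ± 0.08, and Cth, which makes cysteine, at 10.41 ± 0.12, whereas Cbs, the step before Cth, was at 5.46 ± 0.05.

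Threonine use could be followed only in part. Gcat, which completes glycine formation after Tdh, is named by 3 probe sets that also name Galr3, and these were at 9.40 on array 1 and 9.57 on array 2 (1417823_at), at 6.46 and 6.33 (1450581_at), and at 4.71 and 4.62 (1417824_at). The signals cannot be assigned to Gcat alone. Tha1, a threonine aldolase, was at 5.71 and 5.82 with its 1 probe set. Srr, the serine racemase, was at 7.54 and 7.59, and 3 of its 6 probe sets were above 5.

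**Figure D4:**
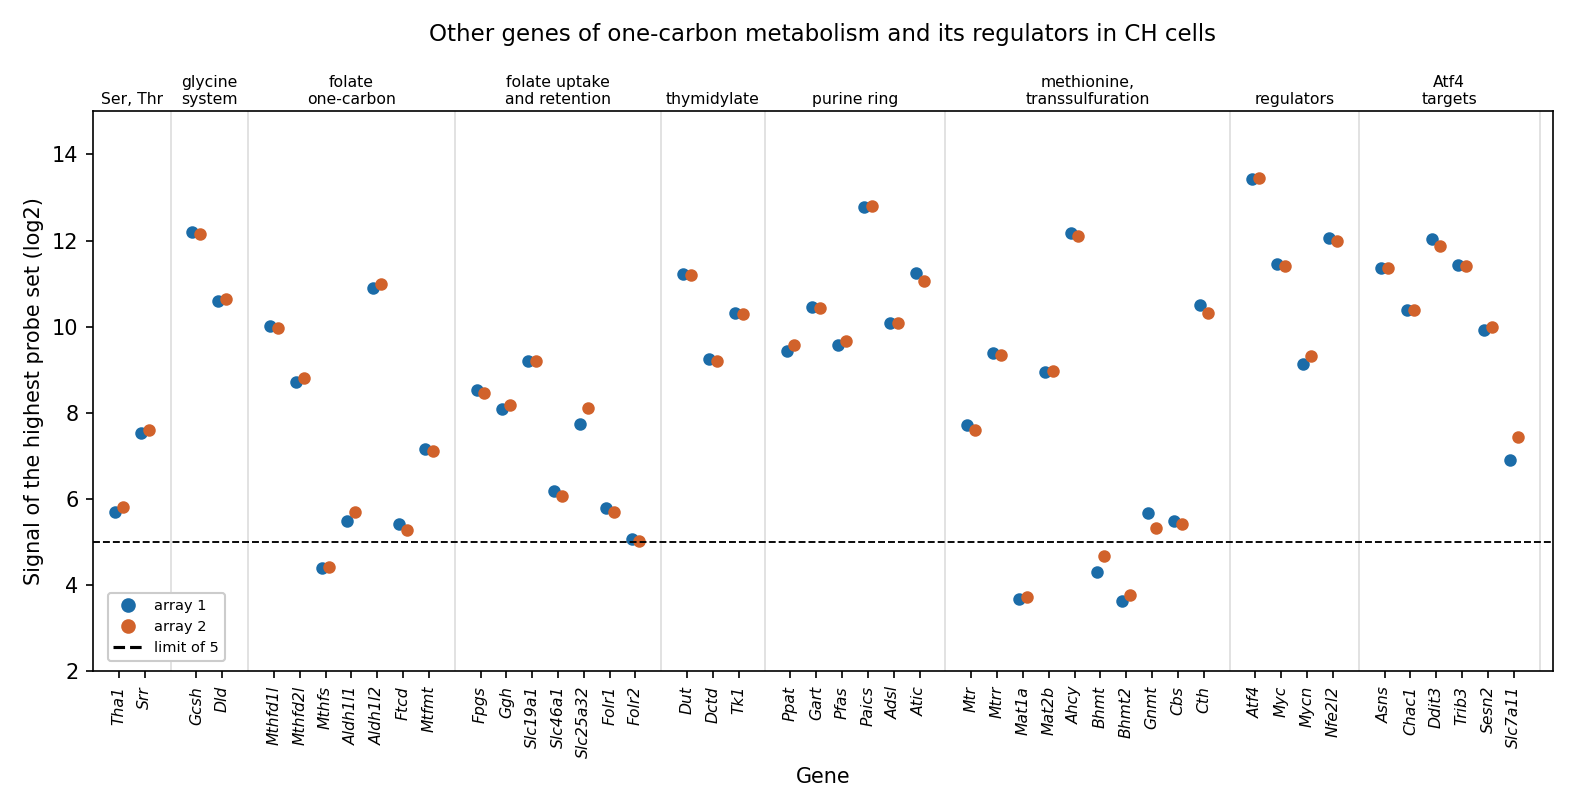
Log2 signal of the highest probe set (vertical axis) of 37 further genes of the pathway and 10 regulators or Atf4 targets (horizontal axis, by role), with blue for array 1, orange for array 2 and the limit of 5 dashed. The 6 purine genes lie above 9, and Mthfs, Mat1a, Bhmt and Bhmt2 lie below 5.

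Factors known to switch on serine and mitochondrial folate genes were above the limit, as were 71.2% of all genes. Atf4, the factor of the response to amino acid shortage, was at 13.44 on array 1 and 13.45 on array 2 with 1448135_at, with its other probe sets at 10.98 and 6.75. Myc was at 11.46 and 11.42, Mycn at 9.13 and 9.32, and Nfe2l2, the factor of the oxidative stress response, at 12.07 and 12.00. Of 6 further Atf4 targets all were above 5, beside 71.2% of all genes, and 5 were above 8, beside 37.0%. Asns, the asparagine synthetase, was at 11.36 ± 0.01, Ddit3, a stress factor also called CHOP, at 11.96 ± 0.12, Trib3 at 11.43 ± 0.02, Chac1 at 10.39 ± 0.01 and Sesn2 at 9.95 ± 0.05 (SD, n = 2 arrays). Slc7a11, the cystine transporter, was at 6.92 and 7.45. The lowest probe sets had means of 6.35 for Nfe2l2, 6.97 for Mycn and 5.86 for Ddit3.

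The sorted cells were checked against markers, and the arrays correlated with Pearson's r = 0.997 over probe sets, which do not count as independent replicates. Pluripotency genes were above 5 in 7 of 7 cases, from 6.59 to 10.43, and mesenchymal genes in 7 of 7, from 7.47 to 14.27. Each marker count given here stands beside 71.2% of all genes above 5 on both arrays. Ptprc, which encodes CD45, was at 4.95 on array 1 and 5.24 on array 2. Of 6 leukocyte genes, Ptprc included, 3 were above 5, namely Cd14 at 8.25, Cd3e at 6.61 and Nkg7 at 5.15. All 4 platelet genes were above 5, up to 7.18. Of 4 erythroid genes with a probe set of their own, only Klf1 was, at 5.90. Probe sets that name several globin genes were higher, at 7.49 on array 1 and 7.52 on array 2 for alpha globin (1428361_x_at) and at 7.27 and 7.08 for beta globin (1417184_s_at), while the 2 others for alpha globin had means of 4.96 and 4.83. The part of other cell types in the members' levels was not tested.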

How the data were processed

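Affymetrix whole-genome mouse arrays of 2 CH cell pools were analysed from the log2 signals that the authors deposited, with no further scaling. Per their methods, CH cell arrays were normalised jointly with public arrays by RMA and quantile normalisation, which ties each level to those arrays. Whether the deposited table holds the output of this run, and the tool versions, are not given in the sources used. Control probe sets were left out, and 45037 remained, and the platform annotation gave 1 gene for 34945, several for 932 and no entry for 9160. Symbols were updated by Entrez identifier to GRCm38.p6.

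A gene was called when a probe set exceeded 5 (log2) on both arrays, and the probe set with the highest mean gave its level. With limma 3.58.1 in R 4.3.3, each mean was compared with 5 by an intercept-only fit, two-sided, with Benjamini-Hochberg adjustment over all probe sets. The step was tested on simulated data, with the observed spreads shuffled over probe sets. That setting cannot show how the step performs where spread depends on signal. The number of arrays limits the precision. The p-values rest on the spread between these pools, which the fit shares over all probe sets at every signal level. Members, gene lists and motifs were chosen with earlier results of these data known. All members and, by list, the other pathway genes were named. Alternatives were other limits, limma, quantile normalization of both arrays, the median over probe sets, no _s_at or _x_at probe sets, and each array alone. Python 3.11.15 with numpy 2.4.6, pandas 2.3.3 and matplotlib 3.10.9 was used.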

Additional observations from a re-analysis of the deposited data

Results flagged for a closer look

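Some probe sets name a gene of the pathway together with another gene. They stand outside the counts and nevertheless had a signal above 5 on both arrays. For Tyms, 1424991_s_at had a mean of 10.21 log2 units. For Phgdh, 1426657_s_at was at 11.29 and 1456471_x_at at 10.16, and each also names a predicted gene. For Gcat, 1417823_at was at 9.49 and 1450581_at at 6.40, while for Mthfs, 1460257_a_at was at 7.76. How much of each signal came from either gene was not tested.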

How the results depend on the processing

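No paired analysis was possible because both arrays belong to 1 group. The count of 8 members above the limit held with limits of 6 and 6.04 (the receptors' 95th percentile), with limma, after quantile normalization, with the median over probe sets and with either array alone. It was 7 at a limit of 8, where Gldc was lost. Without _s_at and _x_at probe sets, where Phgdh had none left, it was 7 of 8, beside 12599 of 17903 genes. Of the 37 other pathway genes, 26 were above limits of 6 and of 6.04, beside 10515 and 10436 of 18193 genes. At a limit of 8, 21 of them and 6738 genes in all were above it, as a higher limit admits fewer. Without _s_at and _x_at probe sets, 11 of 15 member probe sets were above 5, and the share of all probe sets was not computed. The members' median was 10.85 in that setting and 10.07 where each gene was given its median probe set, where all genes had a median of 6.04. Counting probe sets that also name another gene, added after the data were seen, gave 9 members, 35 of 38 other pathway genes and 24 of 28 member probe sets. No share of all genes or probe sets was computed for that setting.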
